A study of Mus musculus with 6 samples.

Results

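The DNA damage repair and Fanconi genes described here are 40 genes, picked by symbol among the 60193 rows of the FPKM matrix and required to carry an Ensembl identifier. All 40 were listed once, and the rule that picks them uses the symbol and identifier alone. They comprise 7 genes of damage signalling, 3 of the MRN break-end sensor, 12 of homologous recombination, 8 of the Fanconi core complex and its anchor, the 2 genes of the Fanconi ID pair, 4 of end joining, 3 of single-strand break repair and the mismatch gene Msh6. RNA-seq was performed on 6 pools of metaphase II (MII) oocytes from ICR mice, an outbred stock, 3 of them matured in culture (in vitro, IVM) and 3 in the animal (in vivo, IVO). A pool combined 20 oocytes of 3 females aged 42 to 45 weeks. All females had received 5 IU of PMSG, a gonadotropin that stimulates follicle growth. IVM oocytes were taken from the ovary 46 h later at the germinal vesicle stage, stripped of their cumulus cells and cultured in M16 medium for 12 h. IVO oocytes were flushed from the oviduct 14 h after an additional injection of hCG, the ovulation trigger, and lost their cumulus cells to hyaluronidase. IVM and IVO pools therefore differed in hormone, surroundings, time and handling together, and these cannot be told apart.

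Repair genes sense, signal and mend broken or crosslinked DNA. The kinases ATM and ATR read the damage and pass it to CHEK2 and CHEK1 and to the p53 family, of which p63 guards the resting oocyte. Recombination copies the lost sequence from an intact strand, end joining ligates the ends directly, and the Fanconi core complex attaches ubiquitin to FANCD2 and FANCI so that a crosslink can be cut out. The MII oocyte makes almost no new RNA, and the messages it stores, many of them activated or degraded during maturation through signals at their 3′ ends, serve the zygote until its own genome is switched on.

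The values are the authors' FPKM, the sequenced fragments of a gene corrected for its length and for library size. They are relative levels, so fewer fragments of one message cannot be told apart from more of all others. Only messages captured as cDNA are counted, and whether a change in the poly(A) tail of a message altered its capture was not tested. Low FPKM values fall on steps worth 1 fragment each, from which the depth was inferred as 16450000 to 19400000 fragments in IVM and 17850000 to 18150000 fragments in IVO libraries, and the inferred mean fragment length was 209 to 217 bases in IVM against 249 to 264 bases in IVO. For a gene of 1000 bases, 3 fragments were worth 0.195 to 0.233 FPKM, a floor that covers counting error only. All 12 oocyte markers passed the filter on low values. Their summed level was 16573 to 19303 FPKM in IVM and 14853 to 17745 FPKM in IVO, most of it from Oosp1, at 10146 to 14047 FPKM in IVM and 11971 to 15158 FPKM in IVO. Their median log2FC was -1.68 (IVO minus IVM), and 7 of the 12, among them Zp2 (-3.69) and Zp3 (-3.13), were called lower in IVO at |log2FC| ≥ 1 and a limma adjusted p-value under 0.05, 58.3% against 17.9% of all tested genes and loci. The 15 cumulus and granulosa markers summed to 24.4 to 34.0 FPKM in IVM and 31.1 to 35.8 FPKM in IVO, nearly all of it from Cyp19a1 and Fshr, and Amh and Nr5a1 were at 0 in all libraries. The 6 oviduct markers summed to 5.55 to 7.48 FPKM in IVM and 3.26 to 5.58 FPKM in IVO. Dynlrb2 was called lower, at 2.72 to 4.47 FPKM in IVM and 0 in all IVO libraries, and Pax8 and Sntn were at 0 in all libraries. The 8 blood markers summed to 1.73 to 3.28 FPKM in IVM and 2.92 to 23.2 FPKM in IVO, where 15.7 FPKM came from Lyz2 in IVO replicate 3. The part of these cells in the results below was not tested.

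The messages of the set spanned several orders of magnitude in FPKM, a scale on which genes of different length can be set side by side. Chek1, the kinase that holds the cell cycle while damage is mended, had the highest mean of all 40 genes, above 96.5% of the tested Ensembl genes. Fance, which bridges the Fanconi core complex to FANCD2, and Rad51c, a recombination gene, came next, and these 3 genes supplied 67.3% of the summed FPKM of the set in IVM and 59.9% in IVO. Of the remaining genes that passed the filter, set at an average of 1 FPKM or more across all libraries, 19 lay between 10 and 100 FPKM and 14 between 1 and 10 FPKM. The 4 genes under the filter were Rad51d, Xrcc3, Fancg and Fancf, and they entered only the alternative fit with no filter, where their adjusted p-values were 0.281 to 0.899. Rad51d and Xrcc3, also recombination genes, ranged from 0.47 to 1.20 and from 0.39 to 0.61 FPKM over the 6 libraries. The core complex genes Fancg and Fancf ranged from 0.09 to 0.52 and from 0 to 0.24 FPKM. By the inferred depth and the length of each gene, this is 4.1 to 25.6 fragments for Fancg and 0 to 6.9 fragments for Fancf, against 26.9 to 63.4 for Rad51d and 15.1 to 22.1 for Xrcc3. Exons of Xrcc3 share 1898 bases with those of Klc1 on the opposite strand, at 12.1 to 16.8 FPKM in IVM and 5.40 to 6.46 FPKM in IVO.

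**Figure D1:**
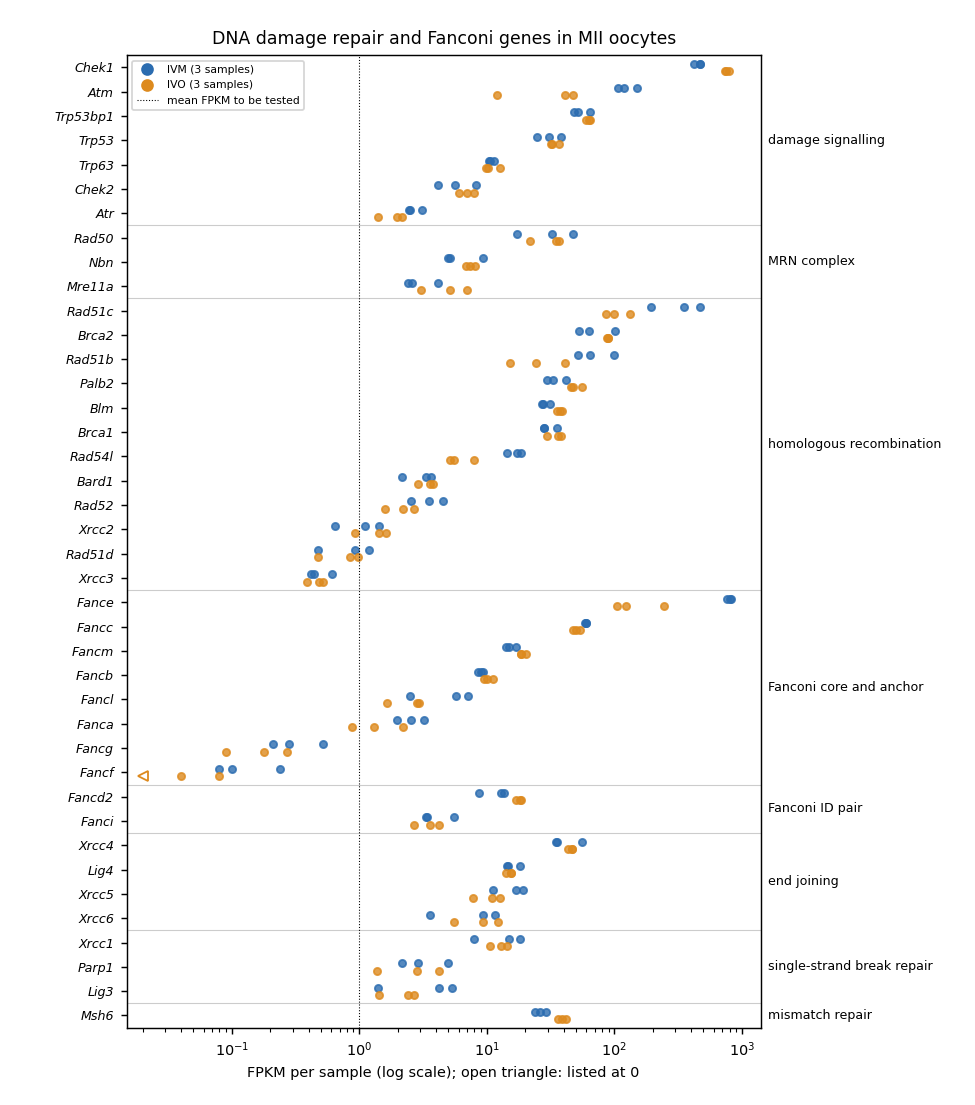
FPKM of each of the 40 genes in the 3 IVM (blue) and 3 IVO (orange) samples, on a log axis and ordered within each role by mean level. The dotted line marks 1 FPKM, the mean needed for testing, and open triangles mark a value listed at 0. Chek1, Fance and Rad51c stand highest, and the orange points of Fance, Atm, Rad51c, Rad51b and Rad54l lie to the left of the blue ones.

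The groups were compared by a limma model of log2(FPKM + 1) across the 18818 genes and assembled loci that passed the filter, and DEGs were required to reach both |log2FC| ≥ 1 and, after Benjamini-Hochberg adjustment, a p-value under 0.05. All log2FC values below are IVO minus IVM on this scale, which understates the change of genes at low FPKM. Of the 36 tested repair genes, 5 were DEGs lower in IVO (Fance, Atm, Rad51c, Rad51b and Rad54l) and 0 were higher. These 5 genes are 13.9% of the 36, against 17.9% of all tested genes and loci called lower (14.6% of the tested Ensembl genes) and 0.606% called higher, so the share of the set called lower was near the background. At an adjusted p-value under 0.05 without the fold threshold, the same 5 were lower and Chek1 was higher, with backgrounds of 21.5% lower and 1.87% higher (18.4% and 2.18% of the tested Ensembl genes). At an unadjusted p-value under 0.05 there were 5 lower and 4 higher, with backgrounds of 31.4% and 5.56% (27.1% and 6.54% of the tested Ensembl genes). The samples of IVO and IVM did not overlap for 7 genes lower in IVO and 7 genes higher, 19.4% of the tested set each, against 32.6% and 9.62% of all tested genes and loci (29.0% and 11.8% of the tested Ensembl genes), and for the other 22 the groups overlapped.

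The median log2FC of the 36 genes was 0.07, whereas that of all tested genes and loci was -0.30 and that of the tested Ensembl genes -0.18. The general shift depended on the scaling, since the median of all tested genes became -0.04 with median-ratio scaling and 0.17 after quantile normalization. The median of the repair genes moved with it to 0.34 and 0.55. As deposited, 25 of the 36 repair genes lay above the median of all tested genes. The split of DEGs moved as well, from 5 lower and 0 higher to 3 lower and 1 higher with median-ratio scaling, 4 and 1 with scaling to the same sum, and 2 and 3 with quantile normalization. The backgrounds were 11.2% lower and 2.09% higher with median-ratio scaling, 11.3% and 2.11% with scaling to the same sum, and 8.4% and 5.83% with quantile normalization.

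**Figure D2:**
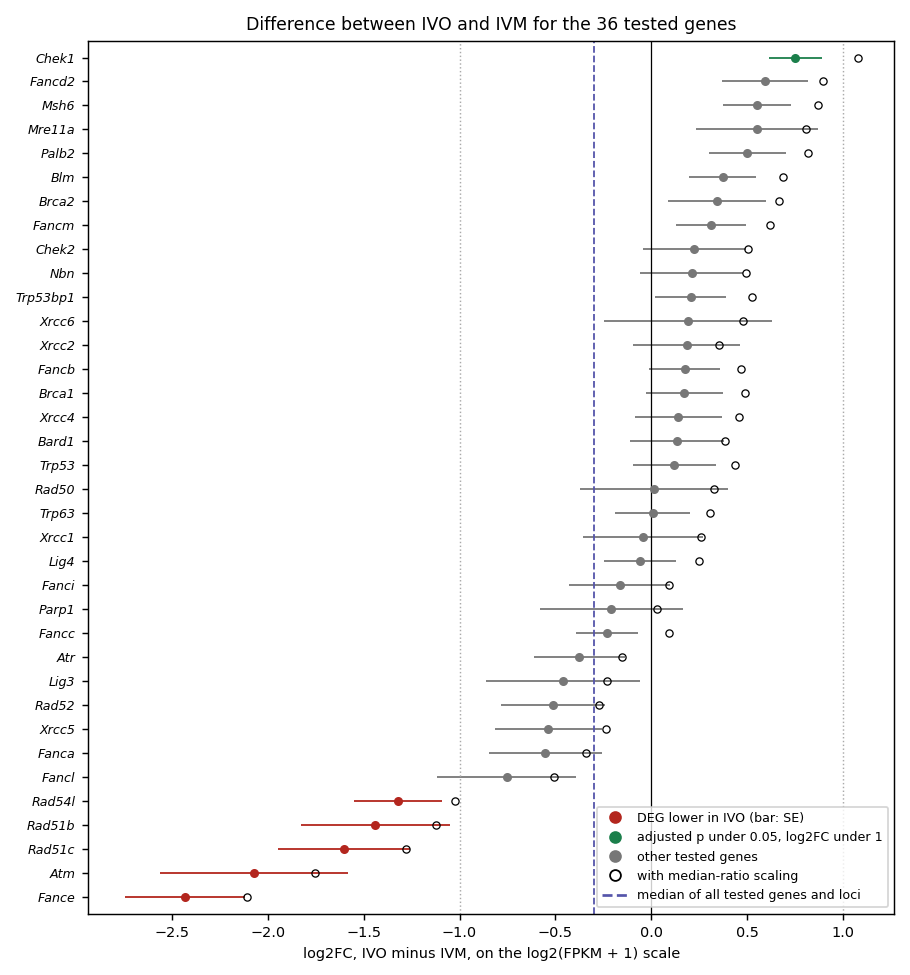
log2FC (IVO minus IVM, on the log2(FPKM + 1) scale) of the 36 tested genes with the SE as a bar, in red for the 5 DEGs and in green for Chek1; black circles give the value with median-ratio scaling. The dashed line is the median of all tested genes and loci, at -0.30, and the dotted lines mark the fold threshold.

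Fance (chromosome 17, 28532488 to 28545546, + strand) had the most negative log2FC of the set. It stood at 823, 771 and 801 FPKM in the 3 IVM samples and at 123, 105 and 247 FPKM in the 3 IVO samples. The IVM values lay close together and every IVO value was far under them, with IVO replicate 3 the highest of its group. The mean fell 5.05-fold, from 798 ± 25.8 to 158 ± 77.3 FPKM (SD, n = 3), with a log2FC of -2.43 ± 0.31 (SE) and a limma adjusted p-value of 0.00315. Fance passed both thresholds in all 18 alternative settings, with log2FC values from -2.80 to -1.93.

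Atm (chromosome 9, 53348097 to 53448236, − strand), the kinase that responds to broken ends, was the only DEG among the signalling genes. Its level was 119, 107 and 151 FPKM in IVM and 41.0, 12.0 and 47.7 FPKM in IVO, so the groups were well apart and IVO replicate 2 was the lowest of all. The log2FC was -2.07 ± 0.49 (SE, adjusted p = 0.0233), and the annotation gives Atm 9 transcripts from 281 to 12554 bases, over which the gene value is summed. The call was made in 13 of 18 settings. It was lost without IVM replicate 1 (adjusted p = 0.0647), without IVM replicate 2 (0.0612) and without IVM replicate 3 (0.0793), with quantile normalization (0.0544) and with no filter on low values (0.0583), while the log2FC remained between -2.43 and -1.47.

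The other DEGs act in recombination. Rad51c (chromosome 11, 87267471 to 87295780, − strand) and Rad51b (chromosome 12, 79343212 to 79861464, + strand) encode subunits of one recombination complex, and Rad54l (chromosome 4, 115948561 to 115980894, − strand) encodes a motor that drives strand exchange. Rad51c had 355, 470.4 and 194 FPKM in IVM and 85.7, 98.8 and 134 FPKM in IVO. The groups did not overlap, although IVM replicate 3 was much closer to IVO than the other IVM samples. Its log2FC was -1.60 ± 0.34 (SE, adjusted p = 0.0169), and the call was lost without IVM replicate 1 (log2FC -1.53, adjusted p = 0.0569) and with median-ratio scaling (log2FC -1.28, adjusted p = 0.0579).

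Rad51b had 64.2, 52.3 and 98.8 FPKM in IVM and 24.5, 41.0 and 15.3 FPKM in IVO. The groups were apart, but the gap between IVM replicate 2 and IVO replicate 2 was small. The log2FC was -1.44 ± 0.39 (SE, adjusted p = 0.0366), the least firm call of the 5, made in 7 of 18 settings. Leaving out IVM replicate 1, 2 or 3 gave log2FC values of -1.49, -1.64 and -1.19 with adjusted p-values of 0.0838, 0.0585 and 0.108, and leaving out IVO replicate 1 or 3 gave -1.43 and -1.10 with 0.0835 and 0.0794. The call was also lost with median-ratio scaling (0.0744), scaling to the same sum (0.105), quantile normalization (0.112), no filter (0.0794) and the replicate block, and the log2FC stayed between -1.79 and -0.96.

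Rad54l had 18.6, 17.4 and 14.4 FPKM in IVM and 5.53, 5.11 and 7.96 FPKM in IVO. All IVM samples lay above all IVO samples with little spread in either group. The log2FC was -1.32 ± 0.23 (SE, adjusted p = 0.00843) and was called in 17 of 18 settings, the exception being quantile normalization, where it was -0.82. Exons of Rad54l share 2354 bases with those of Lrrc41 on the opposite strand, at 2.74 to 3.97 FPKM in IVM and 0.47 to 1.43 FPKM in IVO. The kits used keep no strand, so fragments from these shared bases cannot be assigned to either gene.

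**Figure D3:**
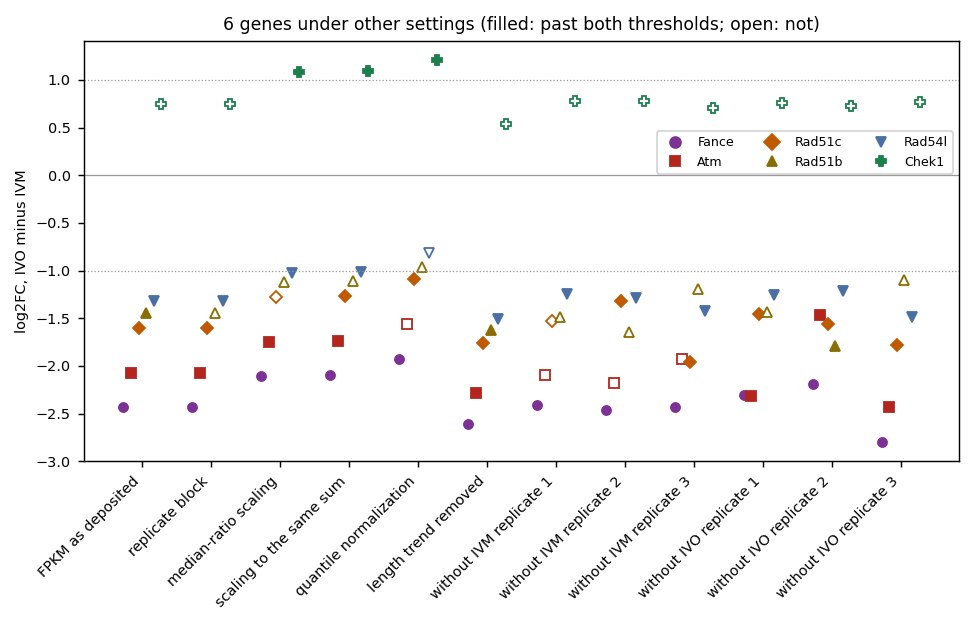
log2FC (IVO minus IVM) of the 5 DEGs and Chek1 with the FPKM as deposited, with the replicate block, under other scalings, and without each of the samples. Filled symbols pass both thresholds and open symbols do not; Fance is filled throughout, Chek1 passes under the 3 other scalings, and the 5 lower genes stay under 0.

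The 3′ ends of the messages were read from the GENCODE sequence of the canonical transcript of each gene, because stored oocyte messages are handled through this region. The last 50 bases were searched on the sense strand for the polyadenylation hexamers AATAAA and ATTAAA, and the 100 bases upstream, up to and into the hexamer, for TTTTAT and TTTTAAT, the letters bound by the cytoplasmic polyadenylation factor CPEB. Shown are the 30 bases that end with the hexamer for the DEGs that have one and for Chek1, with the hexamer and any such element within them in capitals.
Fance, chr17:28545499-28545528, + strand: actgagtaattttgtaacagTTTTAATAAA
Atm, chr9:53348110-53348139, − strand: taTTTTATTTTTATcatgttttaaAATAAA
Rad51c, chr11:87267490-87267519, − strand: cgtttttgaagtgcagtgtgaataAATAAA
Rad51b, chr12:79861410-79861439, + strand: aagagtgaaattcttgcagtatttAATAAA
Chek1, chr9:36614505-36614534, − strand: ataatgttatttctttatttgtatAATAAA
Atm carries 2 elements ahead of its hexamer, Fance has 1 that overlaps it, and the windows searched for Rad51c, Rad51b and Chek1 hold none. No hexamer was found for Rad54l. Among the 27 tested repair genes with a hexamer, 3 (11.1%) had an element, the third being Trp53, against 1608 of 7839 (20.5%) tested protein-coding genes with a hexamer. Over those genes, the median log2FC was 0.00 with an element and -0.18 without, and 8.21% against 15% were called lower in IVO. Whether the letters bear on the levels was not tested, and the search was chosen after the values were seen.

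Chek1 was the gene with the most positive log2FC. It stood at 469, 470.3 and 419 FPKM in IVM and at 754, 788 and 742 FPKM in IVO, with narrow groups that were far apart. The mean was 1.68-fold higher in IVO, with a log2FC of 0.75 ± 0.14 (SE) and a limma adjusted p-value of 0.00988, short of the fold threshold. With median-ratio scaling the log2FC was 1.08 (adjusted p = 0.00913), past both thresholds, and the adjusted p-value stayed under 0.05 in 17 of 18 settings. The exception was the removal of the length trend together with the replicate block, at 0.116. Atr, the kinase that activates CHEK1, was expressed at 2.46, 2.48 and 3.11 FPKM in IVM and 2.16, 1.99 and 1.40 FPKM in IVO, values that did not overlap but differed by a log2FC of only -0.38 (adjusted p = 0.297), which turned to 0.06 with quantile normalization.

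Another 6 genes had non-overlapping groups with higher values in IVO, and none passed the adjusted p-value in the fit with the FPKM as deposited and a mean of at least 1. Msh6, which recognises base mismatches, had 23.8, 26.0 and 29.1 FPKM in IVM and 39.1, 36.2 and 41.4 FPKM in IVO. The spread within each group was smaller than the gap, and the log2FC was 0.55 ± 0.18 (SE, adjusted p = 0.0647, or 0.0451 when the filter was set at a mean of 5 FPKM). Msh6 shares 524 exon bases with Fbxo11 on the opposite strand, a gene at 85.3 to 106 FPKM in IVM and 118 to 128 FPKM in IVO. Fancd2, the substrate of Fanconi ubiquitylation, had 8.69, 13.7 and 12.98 FPKM in IVM and 18.6, 17.1 and 18.3 FPKM in IVO, with the lowest value in IVM replicate 1 (log2FC 0.59 ± 0.22, adjusted p = 0.1001). Palb2, which joins BRCA1 to BRCA2, had 29.9, 32.9 and 41.7 FPKM in IVM and 55.6, 45.7 and 47.1 FPKM in IVO (log2FC 0.50 ± 0.20, adjusted p = 0.118).

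The remaining genes of this kind differed less. Blm, a helicase that dissolves recombination intermediates, lay at 27.0 to 31.3 FPKM in IVM and 35.4 to 39.0 FPKM in IVO. Fancm, the motor that anchors the Fanconi core complex to DNA, lay at 14.02 to 16.9 and 18.6 to 20.4 FPKM, and Fancb of the core complex at 8.56 to 9.40 and 9.57 to 11.2 FPKM. Their log2FC values were 0.37, 0.31 and 0.17. With median-ratio scaling, 5 of these 6 genes passed an adjusted p-value of 0.05, with log2FC values of 0.90 for Fancd2, 0.87 for Msh6, 0.82 for Palb2, 0.69 for Blm and 0.62 for Fancm, and Fancb did not (0.47, adjusted p = 0.0964). Together with Chek1 this made 6 genes, 16.7% of the tested set, under a scaling in which 7.19% of all tested genes and loci passed in that direction. With the length trend removed the differences shrank and none of the 6 genes other than Chek1 passed (limma adjusted p-values of 0.22 to 0.953). The log2FC values were then 0.36 for Fancd2, 0.32 for Msh6, 0.28 for Palb2, 0.14 for Blm, 0.09 for Fancm and -0.02 for Fancb.

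Among the other signalling genes the groups overlapped. Trp53bp1, an adaptor at broken chromatin, had 47.9, 51.6 and 64.1 FPKM in IVM and 59.8, 63.5 and 64.4 FPKM in IVO (log2FC 0.21 ± 0.18, adjusted p = 0.467). It shares 2571 exon bases with Tubgcp4 on the opposite strand, a gene at 56.3 to 70.5 FPKM in IVM and 55.4 to 67.0 FPKM in IVO. Trp53, which encodes p53, had a log2FC of 0.12 at 24.6 to 38.4 FPKM in IVM and 31.7 to 36.9 FPKM in IVO, and Chek2, the effector kinase of ATM, a log2FC of 0.23 at 4.11 to 8.15 and 6.06 to 7.89 FPKM. Trp63, the oocyte p53 relative, differed least of the signalling genes, at 11.4, 10.6 and 10.4 FPKM in IVM and 9.86, 10.1 and 12.8 FPKM in IVO (log2FC 0.01 ± 0.19, adjusted p = 0.985).

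The MRN genes, whose products tether broken ends and recruit ATM, varied widely between pools of one group. Rad50 had 17.3, 32.2 and 47.6 FPKM in IVM, which spanned all 3 IVO values of 34.7, 36.5 and 21.7 FPKM. Nbn lay at 4.99 to 9.41 FPKM in IVM and 6.84 to 8.08 FPKM in IVO. Mre11a lay at 2.41 to 4.13 FPKM in IVM and 3.04 to 6.98 FPKM in IVO, with a log2FC of 0.55 ± 0.32 (SE, adjusted p = 0.259), and shares 592 exon bases with Ankrd49 on the opposite strand, which had 85.1 to 98.1 FPKM in IVM and 127 to 162 FPKM in IVO.

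Of the 12 recombination genes, the large scaffolds overlapped between groups. Brca2, the large mediator of strand exchange, had 63.1, 52.9 and 101 FPKM in IVM and 88.5, 87.9 and 89.6 FPKM in IVO, so that IVM replicate 3 exceeded all IVO samples (log2FC 0.34 ± 0.26, adjusted p = 0.379). Brca1, the ubiquitin ligase that promotes resection of broken ends, lay at 28.0 to 35.5 FPKM in IVM and 29.5 to 37.8 FPKM in IVO, and its partner Bard1 at 2.17 to 3.68 and 2.87 to 3.77 FPKM. Rad52, a strand annealing factor, lay at 2.54 to 4.54 FPKM in IVM and 1.59 to 2.67 FPKM in IVO, and Xrcc2, another gene of this class, at 0.64 to 1.42 and 0.92 to 1.62 FPKM. These related genes were unevenly supplied, with mean levels of 340 and 106 FPKM in IVM and IVO for Rad51c, 71.8 and 26.9 FPKM for Rad51b, and under 1.5 FPKM in both groups for Xrcc2, Rad51d and Xrcc3.

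The Fanconi core complex was just as uneven, from 798 FPKM for Fance in IVM to 0.04 FPKM for Fancf in IVO. Fancc, a core subunit that binds FANCE, had 58.4, 59.7 and 59.9 FPKM in IVM and 49.8, 47.8 and 53.9 FPKM in IVO. The groups were narrow and apart, yet the log2FC of -0.23 ± 0.16 (SE, adjusted p = 0.355) was within the general shift and turned to 0.09 with median-ratio scaling, 0.10 with scaling to the same sum and 0.26 with quantile normalization. Fancl, the ubiquitin ligase of the complex, lay at 2.5 to 7.07 FPKM in IVM and 1.64 to 2.93 FPKM in IVO (log2FC -0.75 ± 0.36, adjusted p = 0.181), and 1511 of its exon bases lie opposite Vrk2, at 20.4 to 34.4 FPKM in IVM and 38.1 to 55.0 FPKM in IVO. Fanca, another core subunit, lay at 1.96 to 3.20 FPKM in IVM and 0.88 to 2.22 FPKM in IVO. Fanci, the partner of FANCD2, lay at 3.36 to 5.48 FPKM in IVM and 2.67 to 4.24 FPKM in IVO.

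No tested gene of end joining or single-strand break repair was a DEG, and 0 of these 7 reached an unadjusted p-value of 0.05. Of the tested Ensembl genes, 14.6% were called lower and 0.623% higher, and 27.1% and 6.54% passed the unadjusted p-value. With only 7 genes, these counts cannot set the 2 classes apart from that background. Xrcc4, which stabilises the ligase, had 34.8, 55.3 and 35.4 FPKM in IVM and 46.1, 46.6 and 42.9 FPKM in IVO (log2FC 0.14 ± 0.23, adjusted p = 0.699), and Lig4, the ligase itself, lay at 14.4 to 18.1 FPKM in IVM and 14.2 to 15.4 FPKM in IVO. The Ku subunit genes Xrcc5 and Xrcc6 had overlapping groups too. Xrcc5 lay at 11.1 to 19.3 FPKM in IVM and 7.76 to 12.6 FPKM in IVO, and Xrcc6 at 3.59 to 11.6 and 5.54 to 12.2 FPKM. All 3 genes of single-strand break repair had negative log2FC values, -0.04 for the scaffold Xrcc1, -0.21 for the break sensor Parp1 and -0.46 for the ligase Lig3, with overlapping groups; with median-ratio scaling Xrcc1 and Parp1 turned to 0.26 and 0.03. Xrcc1 shares 286 exon bases with Pinlyp on the opposite strand, which had 136 to 224 FPKM in IVM and 7.74 to 9.78 FPKM in IVO. Lig3 shares 1826 with Rffl on the opposite strand, at 4.49 to 6.34 FPKM in IVM and 3.02 to 4.36 FPKM in IVO.

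Partner genes were compared within each library, since a ratio of levels in 1 library moves little with its scaling. The log2 ratio of (FPKM + 1) was computed for 8 pairs and tested by an exact two-sided permutation test over samples, whose smallest possible p-value with 3 against 3 samples is 0.1. Atm/Atr was 5.12, 4.95 and 5.21 in IVM and 3.73, 2.12 and 4.34 in IVO, a difference of -1.70 ± 0.67 (SE). Xrcc5/Xrcc6 was 1.40, 0.97 and 0.50 in IVM and 0.22, 0.05 and 0.42 in IVO, a difference of -0.73 ± 0.28. Both ratios were lower in every IVO sample than in every IVM sample. For Xrcc5/Xrcc6 the nearest samples almost touched, IVM replicate 3 at 0.50 and IVO replicate 3 at 0.42. Without IVO replicate 2 the difference for Atm/Atr was -1.06.

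The ratio Chek1/Chek2 was 6.14, 5.69 and 6.36 in IVM and 6.41, 6.64 and 6.72 in IVO, a difference of 0.53 ± 0.22 (SE), which was 0.34 without IVM replicate 2. Fancd2/Fanci was 0.58, 1.73 and 1.68 in IVM and 2.42, 1.79 and 2.06 in IVO, a difference of 0.76 ± 0.42, which was 0.38 without IVM replicate 1. Both were higher in every IVO sample, but the nearest samples of the groups almost touched. These 4 pairs reached the smallest exact permutation p-value of 0.1 (0.2 after Benjamini-Hochberg adjustment over the 8 pairs), so the design could not bring any of them under 0.05. For Brca1/Bard1, Mre11a/Rad50, Xrcc4/Lig4 and Xrcc1/Lig3 the groups overlapped, and the differences were 0.04 ± 0.25, 0.54 ± 0.58, 0.20 ± 0.29 and 0.41 ± 0.63.

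**Figure D4:**
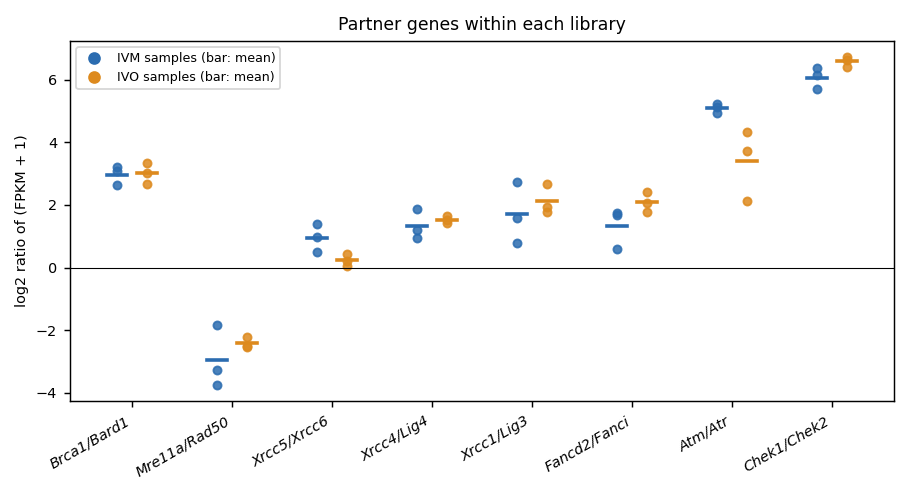
log2 ratio of (FPKM + 1) of 8 partner pairs in each of the 3 IVM (blue) and 3 IVO (orange) samples, with bars at the group means. Atm/Atr and Xrcc5/Xrcc6 lie lower in IVO and Chek1/Chek2 and Fancd2/Fanci higher, without overlap, while the other 4 pairs overlap.

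The wider repair pathways were described with 8 lists of 127 other genes, of which 109 passed the filter. Of these, 12 were DEGs lower in IVO, 11%, and 2 were higher, or 1.83%, against 14.6% lower and 0.623% higher among the tested Ensembl genes. With quantile normalization the split was 7 lower and 8 higher. The median log2FC was -0.07. Neither the 24 tested genes of other damage signalling nor the 5 of other mismatch repair held a DEG. No gene of either list passed the adjusted p-value alone, against 18.4% lower and 2.18% higher of the tested Ensembl genes. At an unadjusted p-value under 0.05, 3 of the signalling genes, all lower in IVO, and 0 of the mismatch genes passed, against 27.1% lower and 6.54% higher. The 5 mismatch genes are too few to set that list apart, and neither list was tested against these shares.

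The other Fanconi genes held 2 DEGs of 13 tested, both lower, 15.4% against 14.6% of the tested Ensembl genes. Ube2t, the ubiquitin-conjugating enzyme that works with FANCL, had 842, 1099 and 624 FPKM in IVM and 136, 149 and 190 FPKM in IVO, with no overlap (log2FC -2.40 ± 0.25, adjusted p = 0.00171). Its mean of 158 FPKM in IVO was close to that of Fance. Other recombination genes held 3 lower and 2 higher DEGs of 22 tested, 13.6% and 9.09%, against 14.6% and 0.623% of the tested Ensembl genes. The 2 higher genes are too few to set the list apart. Dmc1, the meiotic strand exchange protein, had 71.3, 95.1 and 64.0 FPKM in IVM and 10.7, 24.9 and 27.9 FPKM in IVO (log2FC -1.90 ± 0.37, adjusted p = 0.012). Helq, a helicase at stalled forks, went the other way, from 61.9, 68.9 and 63.9 FPKM in IVM to 162, 156 and 149 FPKM in IVO (log2FC 1.25 ± 0.16, adjusted p = 0.00287).

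In end joining, 1 of 6 tested genes was lower, 16.7% against 14.6% of the tested Ensembl genes. It was Prkdc, the DNA-dependent kinase that Ku recruits, at 242, 354 and 158 FPKM in IVM and 117, 80.2 and 67.1 FPKM in IVO (log2FC -1.47 ± 0.34, adjusted p = 0.0215). The call was lost with median-ratio scaling (log2FC -1.14, adjusted p = 0.0634). Base excision and single-strand break repair held 3 lower DEGs of 18 (16.7%). Of these, Aptx, which clears failed ligation ends, had 129, 87.9 and 106 FPKM in IVM against 36.6, 15.3 and 19.0 FPKM in IVO (log2FC -2.22 ± 0.33, adjusted p = 0.0052). Nucleotide excision repair held 2 lower DEGs of 10 (20%). Of these, Cetn2, a subunit of the damage recognition complex and also a centriole protein, had 145, 102 and 73.8 FPKM in IVM against 12.0, 13.6 and 14.7 FPKM in IVO (log2FC -2.85 ± 0.27, adjusted p = 0.00134). Lesion bypass and direct reversal held 1 lower DEG of 11 (9.09%), Mgmt, which removes alkyl groups from guanine, at 1.84 to 3.16 FPKM in IVM and 0.04 to 0.62 FPKM in IVO. With 6 to 18 genes per list, these shares cannot set a list apart from the background.

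Of 18 target genes of p53 and p63, 9 passed the filter. Their median log2FC was 0.23, against -0.30 for all tested genes and loci and -0.18 for the tested Ensembl genes. Of these 9, 0 were called lower and 1 higher, against 14.6% and 0.623% of the tested Ensembl genes. With only 9 genes, these counts cannot set the list apart from that background. The gene called higher was Bax, a killer protein of the mitochondrial death pathway, with 1.5, 1.26 and 2.30 FPKM in IVM and 4.28, 5.28 and 5.43 FPKM in IVO, without overlap (log2FC 1.17 ± 0.24, adjusted p = 0.0151). Cdkn1a, the cell cycle inhibitor, lay at 0.66 to 1.12 FPKM in IVM and 1.10 to 1.82 FPKM in IVO (log2FC 0.42, adjusted p = 0.294). Sesn1, a stress-induced regulator of growth signalling, lay at 9.20 to 17.6 FPKM in IVM and 4.59 to 8.75 FPKM in IVO, without overlap (log2FC -0.72, adjusted p = 0.159). Trp53inp1 went the other way, at 25.2 to 31.6 FPKM in IVM and 37.4 to 41.3 FPKM in IVO, also without overlap (log2FC 0.44, adjusted p = 0.125).

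**Figure D5:**
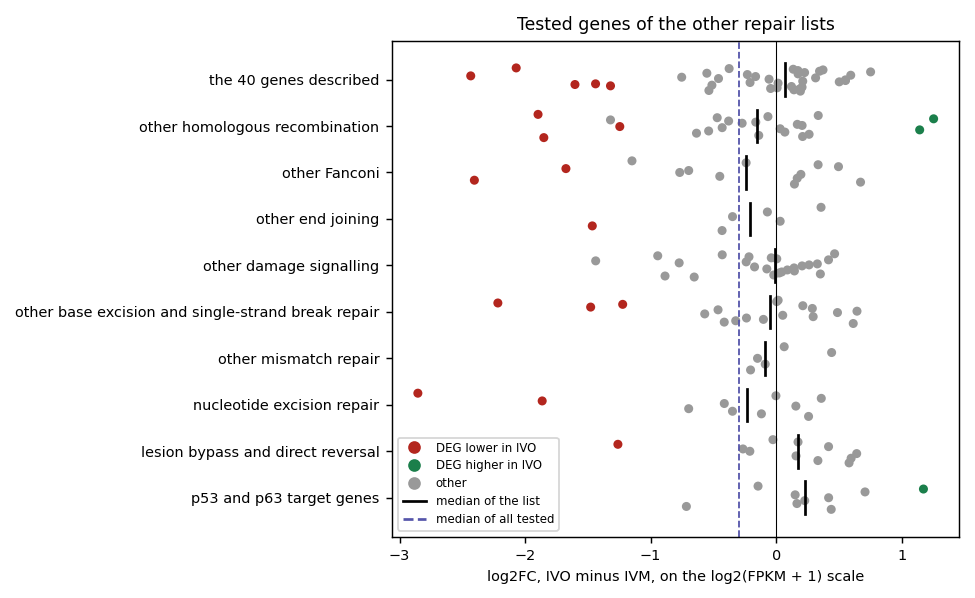
log2FC (IVO minus IVM, on the log2(FPKM + 1) scale) of each tested gene, for the 40 genes described (36 tested) and the lists of other repair genes and of p53 and p63 targets. Red points are DEGs lower in IVO and green points DEGs higher; black ticks give the median of a list and the dashed line the median of all tested genes and loci, at -0.30.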

How the data were processed

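Per the methods, SeqPrep and Sickle filtered the paired-end reads, which were aligned to GRCm39. The labels name HISAT2 2.1.0, RSEM 1.3.3 and DESeq2 1.24.0 in the submitters' processing notes. The authors deposited 1 FPKM value per gene and sample, from cDNA made with the SMART-Seq v4 and Nextera XT kits, and the mean FPKM of each group, which was not used. Groups and replicate numbers came from the sample labels. The pools are separate samples, so the limma p-values set the group difference against the spread between pools. That spread is estimated partly from other genes of similar level. No count test was run on FPKM.

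The 18818 genes and loci averaging 1 FPKM or more were fitted by limma 3.58.1 in R 4.3.3 (lmFit and trended eBayes), on log2(FPKM + 1) with group as the only term. The p-values are two-sided, with Benjamini-Hochberg adjustment over all tested rows. Depth was inferred from the worth of 1 fragment in genes of 500 to 1500 bases with 1 transcript. Per library, 78.8% to 81.0% of values worth at most 5.5 fragments lay within 0.15 of a whole number. Median-ratio scaling divides each library by its median ratio to the geometric mean.

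The 40 genes, the other lists and the pairs were chosen with earlier results of these data known. All 40 genes are named, with full statistics for DEGs and the genes of highest mean. Of every other repair list, the DEGs of most negative and most positive log2FC without overlap are named. Cdkn1a, Sesn1 and Trp53inp1 were named after their values were seen. Coordinates are those of GENCODE on GRCm39, and the 3′ ends were read from the GENCODE transcript sequences. Alternatives were other scalings, pseudocounts and filters, eBayes without trend, Ensembl genes only, a length trend removed by lowess, the replicate number as a block, and each sample left out.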

Additional observations from a re-analysis of the deposited data

How the results depend on the processing

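The 5 DEGs of the set became 3 with no filter on low values. With 1 sample left out they numbered 2 to 5, with 2 without IVM replicate 1, 3 without IVM replicate 2 and 3 without IVM replicate 3, and the genes past the adjusted p-value alone, 6 as deposited, numbered 3 to 6. With quantile normalization that count rose to 11, 3 lower and 8 higher, against 5 lower and 1 higher as deposited. For Ensembl genes with median-ratio scaling it was 11 as well, 5 lower and 6 higher. The share of all tested genes past this threshold was not computed under these settings, so the rise cannot be set beside a background. The median log2FC of the set, 0.07 as deposited, was 0.34 with median-ratio scaling, 0.35 with scaling to the same sum, 0.55 with quantile normalization, 0.28 for Ensembl genes with median-ratio scaling, -0.16 with the length trend removed and -0.16 with the block added to that. Fancc turned from -0.23 to 0.09 with median-ratio scaling, and to 0.01 for Ensembl genes with that scaling. It turned to 0.10 with scaling to the same sum and 0.26 with quantile normalization. Xrcc4 turned from 0.14 to -0.01 with the length trend removed, with and without the block. Among other genes that turned sign were Xrcc1 in 7 of 18 settings, Rad50, Trp63 and Lig4 in 5 of 18, and Parp1 and Fanci in 5 of 17. Fance, Atm, Rad51c, Rad51b, Rad54l and Chek1 did not turn in any setting. The cause of these moves was not tested. Samples with the same replicate number did not deviate together (correlations of -0.06, -0.02 and -0.11, against -0.02 to 0.08 for different numbers). With deviations from means of 3 samples, this shows no pairing but cannot exclude one. With the replicate block the set held 4 DEGs, Rad51b being lost (adjusted p = 0.0824), 5 genes passed the adjusted p-value alone, the median log2FC was 0.07 and 14 of the other repair genes were called. The other repair genes held 14 DEGs as deposited, 12 lower and 2 higher, and 11 to 15 in the alternatives, with a split of 7 lower and 8 higher under quantile normalization. The depth limits Fancf most, with 0 to 6.9 inferred fragments per library.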
